A study of Mus musculus with 2 samples.

Results

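Chemokines are small secreted proteins that draw leukocytes along a gradient, and the liver makes them in nearly every kind of cell it holds. Here 10 chemokine genes of the mouse liver in steatohepatitis were followed to the nuclei that carried their RNA: Cxcl1, Cxcl2, Cxcl9, Cxcl10, Cxcl12, Cxcl13, Cxcl16, Ccl2, Ccl5 and Ccl6. They were picked by symbol from the 32285 genes of the count tables, and all 10 were found. Nuclei for snRNA-seq were sorted from livers of C57BL6/J males fed the AMYLIN liver NASH diet, which held fat at 40 kcal%, fructose at 20 kcal% and cholesterol at 2%, for 5 months from an age of 10 to 12 weeks. The library labelled Flox came from Themis flox/flox mice, which its title also calls WT. The library labelled HKO came from Themis Alb-Cre mice, whose Cre recombinase is made under the albumin promoter and so works in hepatocytes. Both groups shared the strain, sex, tissue and diet. Each group was 1 library made from the pooled livers of several mice, so that nothing here measures the spread between animals, and no test between the groups was possible.

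Chemokines signal through receptors that span the cell membrane, and which receptor a leukocyte carries decides which gradient it follows. Cxcl1 and Cxcl2 are ligands of Cxcr2, the main chemokine receptor of neutrophils. Cxcl9 and Cxcl10 are induced by interferons and bind Cxcr3 of activated T cells. Cxcl12 binds Cxcr4 and is made steadily by stromal cells. Cxcl13 draws B cells through Cxcr5, and Cxcl16, made as a membrane-bound protein, binds Cxcr6 of liver T and NK-type cells. Ccl2 brings in monocytes through Ccr2, Ccl5 draws T cells, and Ccl6 is a myeloid chemokine of rodents.

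The library labelled Flox held 9363 barcodes and 58171337 UMIs, and the library labelled HKO 10748 barcodes and 40475938 UMIs. After doublet removal 8659 and 9801 nuclei were kept, with a median of 5959 and 1971 UMIs, and 27 barcodes occurred in both libraries. Levels are given as CPM, the UMIs of a gene summed over the nuclei of a class and scaled to 1000000 UMIs of all genes, and where 2 values are given side by side the library labelled Flox comes first. Ratios are the CPM of the library labelled HKO over that of the library labelled Flox. Intervals, in parentheses, are 95% intervals that cover counting error only. Nuclei were grouped by clusters made without chemokine ligand and receptor genes and named from marker UMIs, so that a name such as Kupffer stands for Kupffer-like nuclei. The 12 classes compared had at least 50 nuclei in each library. Of these, 10 were named and 2 stayed unnamed, N5 with collagen genes leading (Col1a2, Col1a1) and N7 with Ccr2 and Lyz2 leading and markers of monocytes, conventional dendritic cells and neutrophils. N5 carried all 8 stellate markers, which summed to 6213 and 3792 CPM, beside 10889 and 8594 CPM in the stellate class. It stayed unnamed because more markers of another type were among its leading genes. A mixed cluster with mitochondrial and immunoglobulin genes leading, of 79 and 113 nuclei, was as large but was not compared. Hepatocytes were 66.8% of the nuclei labelled Flox and 45.4% of those labelled HKO. When each nucleus was called from its own marker UMIs instead, 99.7% and 98.5% of the hepatocytes kept their name, but only 21.2% and 34.9% of the lipid-associated macrophages. Themis itself did not lie lower in the hepatocytes labelled HKO: it had 7430 UMIs and 163 CPM in the library labelled Flox, against 6786 UMIs and 247 CPM, with a ratio of 1.51 (1.47–1.57). Counts from the end of the transcript do not show whether the deleted exon was present, and each group is called by its label throughout.

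**Figure D1:**
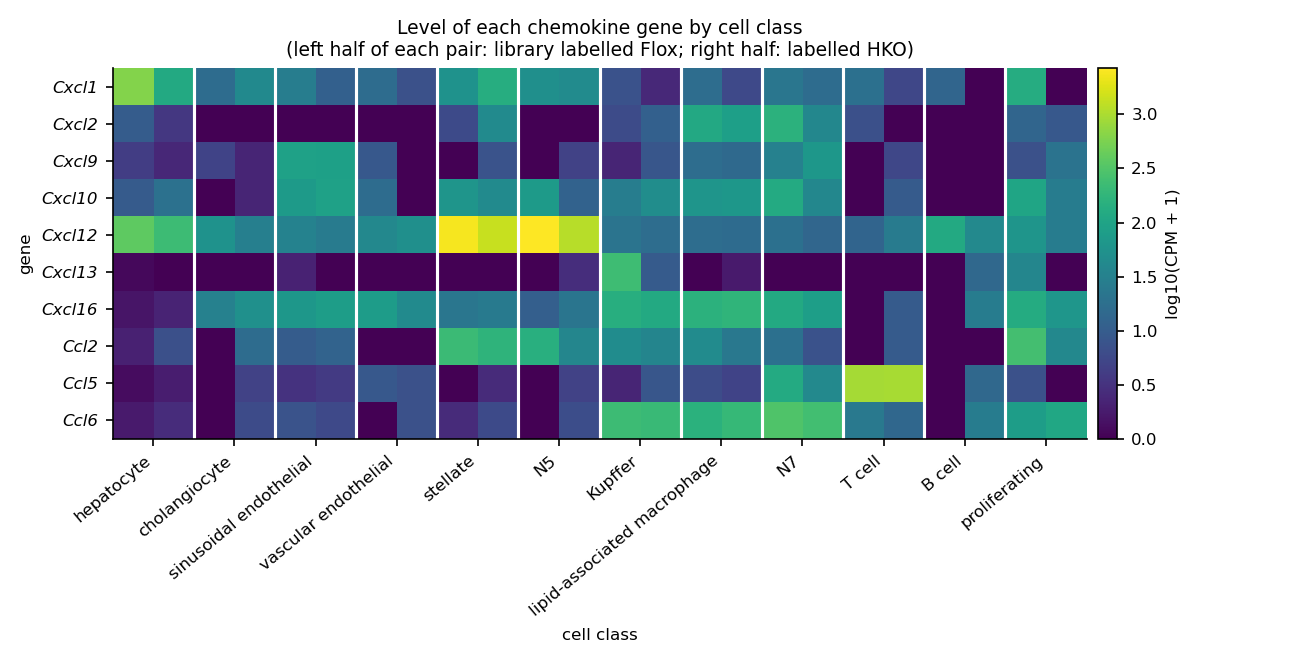
Level of the 10 chemokine genes in 12 cell classes, as log10(CPM + 1) by colour. In each field the left side stands for the library labelled Flox and the right side for the library labelled HKO. The fields of Cxcl12 in stellate nuclei and N5 (up to 2687 CPM), Ccl5 in T cells (912 and 963 CPM) and Cxcl1 in hepatocytes labelled Flox (625 CPM) are the strongest, and the field of Cxcl13 in Kupffer nuclei is strong on its Flox side only.

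The classes with the highest level differed from gene to gene. In both libraries Cxcl9 was highest in sinusoidal endothelium, Cxcl16 in lipid-associated macrophages, Ccl5 in T cells and Ccl6 in N7. Cxcl12 was highest in N5 and stellate nuclei, in that order in the library labelled Flox and in the opposite order in the library labelled HKO. Cxcl1 was highest in hepatocytes labelled Flox, whereas in the library labelled HKO stellate nuclei came first. Cxcl2 and Cxcl10 were highest in N7 in the library labelled Flox, and in the library labelled HKO in lipid-associated macrophages and sinusoidal endothelium. In N7 labelled Flox 1 nucleus held 24 of the 46 Cxcl2 UMIs and 1 held 20 of the 36 Cxcl10 UMIs. Ccl2 was highest in stellate nuclei in the library labelled HKO and, in the library labelled Flox, second to proliferating nuclei, whose value came mostly from 1 nucleus. Hepatocytes were the most numerous and deepest nuclei among the classes compared, with a median of 7445.5 and 5831 UMIs, so that a gene at a low level there could still have most of its UMIs in them. They gave 77.9% of the Cxcl2 UMIs labelled Flox at 8.82 CPM, and 58.4% of the Cxcl10 UMIs at 8.73 CPM.

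**Figure D2:**
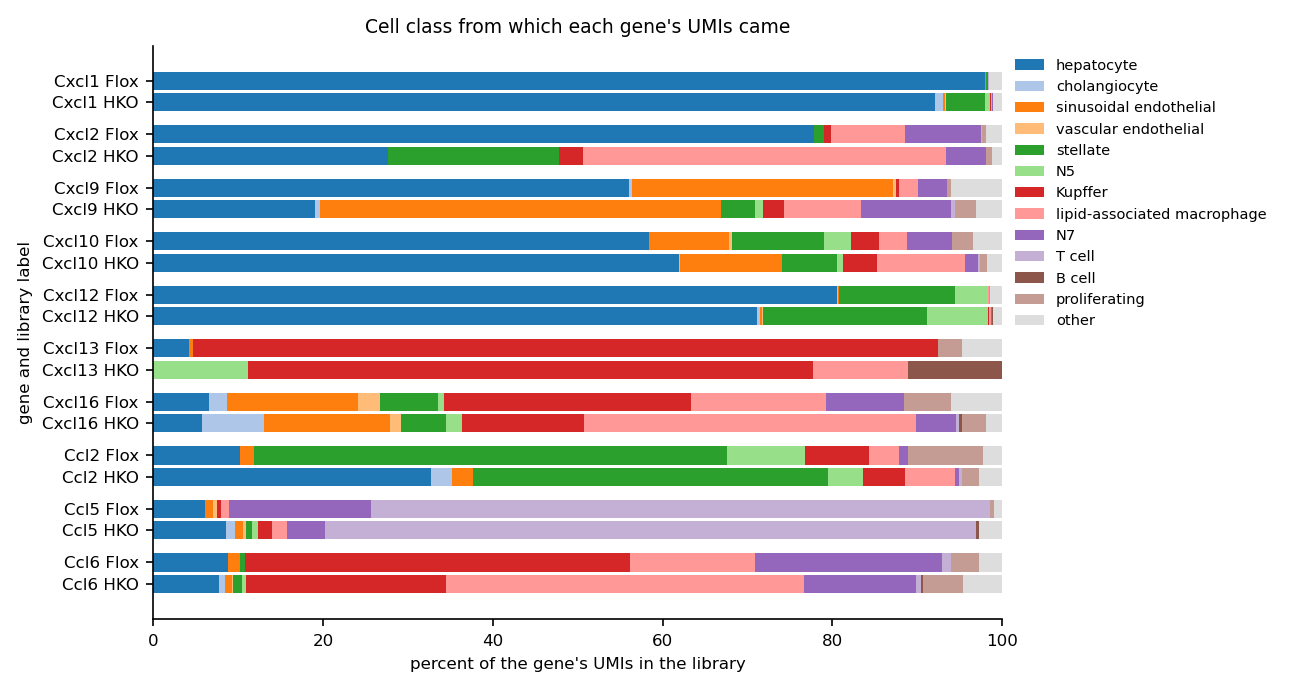
Share of each gene's UMIs that came from each cell class, in percent of all UMIs of the gene in a library, with 1 bar per gene and library. Hepatocytes gave 98.0% of the Cxcl1 UMIs labelled Flox and 92.1% of those labelled HKO, T cells gave 72.9% and 76.7% of those of Ccl5, and the bar of Cxcl13 labelled HKO rests on 9 UMIs.

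Levels were compared between the libraries for each gene with at least 20 UMIs in a class, and a gene is counted as higher or lower when its CPM differed at least 2-fold and the interval of the ratio left out 1. In hepatocytes 9 of the 10 genes were measured, of which 5 lay higher in the library labelled HKO (Cxcl10, Cxcl16, Ccl2, Ccl5, Ccl6) and 3 lower (Cxcl1, Cxcl2, Cxcl9). Of the 14556 genes measured there, 6.2% lay higher and 4.72% lower. Cxcl16, Ccl5 and Ccl6 lay at very low levels there, and markers of their source cells lay higher in the same hepatocytes too. Without the sub-clusters H8 and H11, described below, the interval of the Cxcl10 ratio (0.875–1.96) held 1. In stellate nuclei 2 of 6 lay higher (Cxcl1, Cxcl2) and 0 lower, beside 1.63% and 4.1% of 9517 genes. The sinusoidal endothelium had 0 higher and 1 lower (Cxcl1) of 6, beside 1.49% and 2.31% of 8908 genes. Kupffer nuclei had 0 higher and 1 lower (Cxcl13) of 6, beside 1.21% and 3.91% of 8126 genes. Lipid-associated macrophages had 0 of 7 in either direction, beside 1.45% higher and 3.75% lower of 8404 genes. N5 had 0 higher and 3 lower of 4 (Cxcl10, Cxcl12, Ccl2), beside 2.15% and 4.8% of 6193 genes, and N7 had 0 higher and 3 lower of 6 (Cxcl2, Cxcl10, Ccl5), beside 2.12% and 4.5% of 5506 genes. Proliferating nuclei had 0 higher and 4 lower of 5 (Cxcl1, Cxcl10, Cxcl16, Ccl2), beside 2.42% and 4.57% of 4550 genes, and there all 22 Cxcl1 UMIs labelled Flox were in 1 nucleus. There 1 nucleus labelled Flox also held 34 of 42 Ccl2 UMIs. In N5 such nuclei held 15 of 22 Cxcl10 UMIs and 39 of 44 Ccl2 UMIs. In N7 they held 24 of 46 Cxcl2 UMIs and 20 of 36 Cxcl10 UMIs. The counts of these classes rest in part on single nuclei and are not read as a result about the members. The median log2 ratio of the members was 0.51 in hepatocytes, the value of Cxcl16, -0.09 in stellate nuclei and -0.26 in Kupffer nuclei. Over all genes measured it was -0.01, -0.06 and -0.09. With 1 library per group these counts compare 2 libraries and not 2 genotypes.

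**Figure D3:**
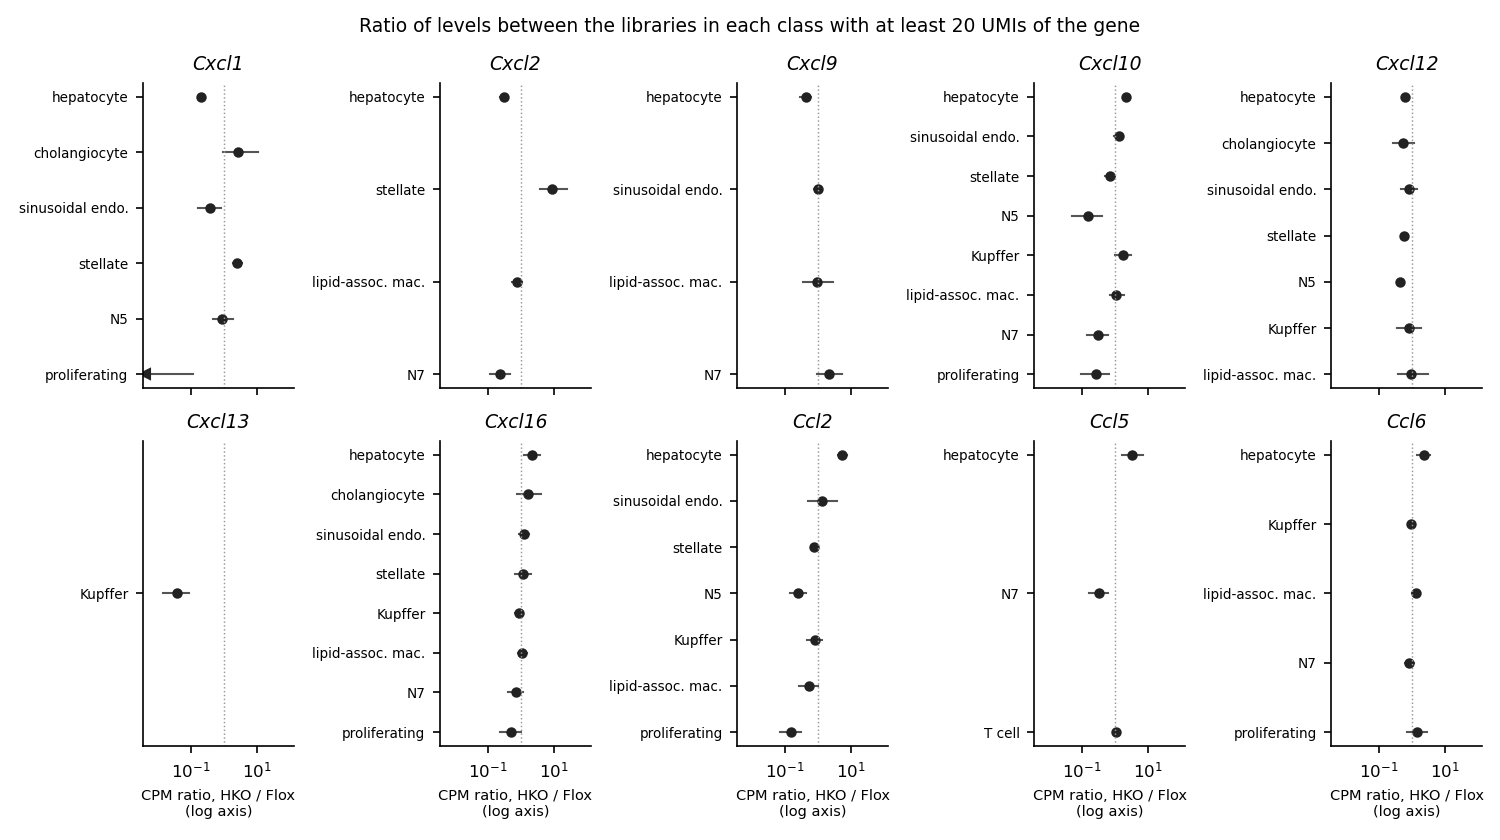
Ratio of CPM, library labelled HKO over library labelled Flox, on a log axis, for each gene in each class with at least 20 of its UMIs. Points are ratios, bars their 95% counting intervals, the dotted line is a ratio of 1, and an arrow marks a ratio of 0. Cxcl1 lies below 1 in hepatocytes (0.195) and above it in stellate nuclei (2.52), while Ccl5 in T cells (1.06) and Cxcl9 in sinusoidal endothelium (0.990) lie close to 1.

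Cxcl1 and Cxcl2 are neighbours on chromosome 5, at chr5:90891241-90893115 and chr5:90903871-90905938 on the plus strand of GRCm38. Cxcl9 and Cxcl10 lie beside each other on the same chromosome, at chr5:92321347-92328079 and chr5:92346638-92348889 on the minus strand. Cxcl13 is the fifth member on this chromosome, Cxcl12 is on chromosome 6, and the other 4 are on chromosome 11. On the plus strand lie Cxcl12 (chr6:117168535-117181367), Cxcl13 (chr5:95956951-95961068) and Ccl2 (chr11:82035571-82037453), and on the minus strand Cxcl16 (chr11:70453983-70459984), Ccl5 (chr11:83525778-83530518) and Ccl6 (chr11:83587882-83593087). The 250 bases before the RefSeq start of these neighbouring genes, which for Cxcl1 and Cxcl2 lies further along the gene than the start given above, are shown because NF-kB and interferon response genes were read in the same nuclei. They come from RefSeq on GRCm38.p6 and run 5′ to 3′ along each gene. Capitals mark matches on either strand to GGNNTTTCC, a form of the kappa-B motif bound by NF-kB, and to GAAANNGAA, a form of the interferon-stimulated response element, and no such matches overlapped.
Cxcl1, chr5:90890995-90891244, plus strand: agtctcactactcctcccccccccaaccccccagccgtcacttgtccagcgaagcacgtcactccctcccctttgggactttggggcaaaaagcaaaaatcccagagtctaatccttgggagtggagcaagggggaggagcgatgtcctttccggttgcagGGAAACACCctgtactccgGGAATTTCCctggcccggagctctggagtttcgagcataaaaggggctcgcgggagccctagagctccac
Cxcl2, chr5:90903649-90903898, plus strand: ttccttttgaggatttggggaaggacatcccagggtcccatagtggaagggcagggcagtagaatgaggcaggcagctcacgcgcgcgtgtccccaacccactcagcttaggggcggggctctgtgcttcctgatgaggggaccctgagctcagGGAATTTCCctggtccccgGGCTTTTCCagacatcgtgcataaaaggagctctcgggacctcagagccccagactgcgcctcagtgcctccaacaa
Cxcl9, chr5:92328080-92328329, minus strand: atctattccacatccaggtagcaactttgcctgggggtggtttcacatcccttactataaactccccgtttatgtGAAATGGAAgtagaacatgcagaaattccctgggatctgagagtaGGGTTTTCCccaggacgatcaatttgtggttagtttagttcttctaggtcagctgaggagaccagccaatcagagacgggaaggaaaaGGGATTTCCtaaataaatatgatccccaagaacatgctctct
Cxcl10, chr5:92348890-92349139, minus strand: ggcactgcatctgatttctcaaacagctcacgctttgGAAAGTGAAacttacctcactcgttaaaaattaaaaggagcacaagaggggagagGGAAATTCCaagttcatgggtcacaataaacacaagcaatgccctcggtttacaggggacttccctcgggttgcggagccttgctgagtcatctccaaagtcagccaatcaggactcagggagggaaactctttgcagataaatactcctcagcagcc

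The table of promoters held 7 of the 10 genes among 32851 entries of the same length, and GGNNTTTCC occurred in 4 of these 7, those printed, against 4.93% of all entries. Cxcl1, Cxcl2 and Cxcl9 each held a pair of matches, starting 89 and 70 bases before the RefSeq start in Cxcl1, 96 and 77 in Cxcl2, and 130 and 42 in Cxcl9. Cxcl10 had 1, at 158 bases. GAAANNGAA occurred in Cxcl9, at 175 bases, and in Cxcl10, at 213 bases, against 7.13% of all entries. TGANTCA, a form of the AP-1 motif, was found in Cxcl10 at 74 bases, against 6.75% of all. The longest run shared by the promoters of Cxcl1 and Cxcl2 was GGGAATTTCCCTGG, 14 bases over a kappa-B match, and it occurred in 2 of the 32851 entries, those of these genes. A match is a string of letters and not a bound site.

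Cxcl1 had 29089 UMIs in the library labelled Flox, more than any other member there, and 3630 in the library labelled HKO, where Cxcl12 had 8642. Hepatocytes held most of the Cxcl1 UMIs. Hepatocytes labelled Flox had 28495 UMIs, or 625 CPM (618–632), and those labelled HKO 3344 UMIs, or 122 CPM (118–126). The ratio was 0.195 (0.188–0.202). The gene was seen in 3676 of 5780 and 1111 of 4454 hepatocytes, or 63.6% and 24.9%. After every nucleus was thinned to 1000 UMIs, leaving out shallower ones, the shares were 29.5% and 7.31%, beside 0.898% and 0.254% in Kupffer nuclei, whose median depths were 2231 and 1543 UMIs. The 10 nuclei with most UMIs gave 2.52% and 13.3% of the hepatocyte total.

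Within the hepatocytes, Cxcl1 was lower in the library labelled HKO in 11 of 11 sub-clusters, with ratios from 0.0354 to 0.616 and every interval below 1. These sub-clusters hold both libraries through the integration: without it, 10 of 12 hepatocyte clusters, with 96.5% of their nuclei, came to at least 95% from 1 library. The sub-clusters spread widely, from 138 to 1874 CPM in the library labelled Flox and from 42.1 to 656 CPM in the library labelled HKO. Among those labelled Flox the gene was high in H8 (1874 CPM), H4 (1728 CPM), H9 (1293 CPM) and H5 (924 CPM). H8 was led by Nrg1, Cxcl10, Saa3 and Lcn2, and H9 by genes of DNA replication such as Uhrf1 and Top2a. H4 was led by the acute-phase genes Saa1 and Saa2 and by Cxcl1 itself, so that its Cxcl1 level describes H4 and tests nothing. H4 had 1093 nuclei labelled Flox and 26 labelled HKO and may be that library rather than a kind of hepatocyte. Without H4 the level was 347 and 121 CPM, with a ratio of 0.350 (0.337–0.364). The highest level labelled HKO was again in H8, at 656 CPM (618–696), and without H8 the ratio was 0.145 (0.138–0.151).

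**Figure D4:**
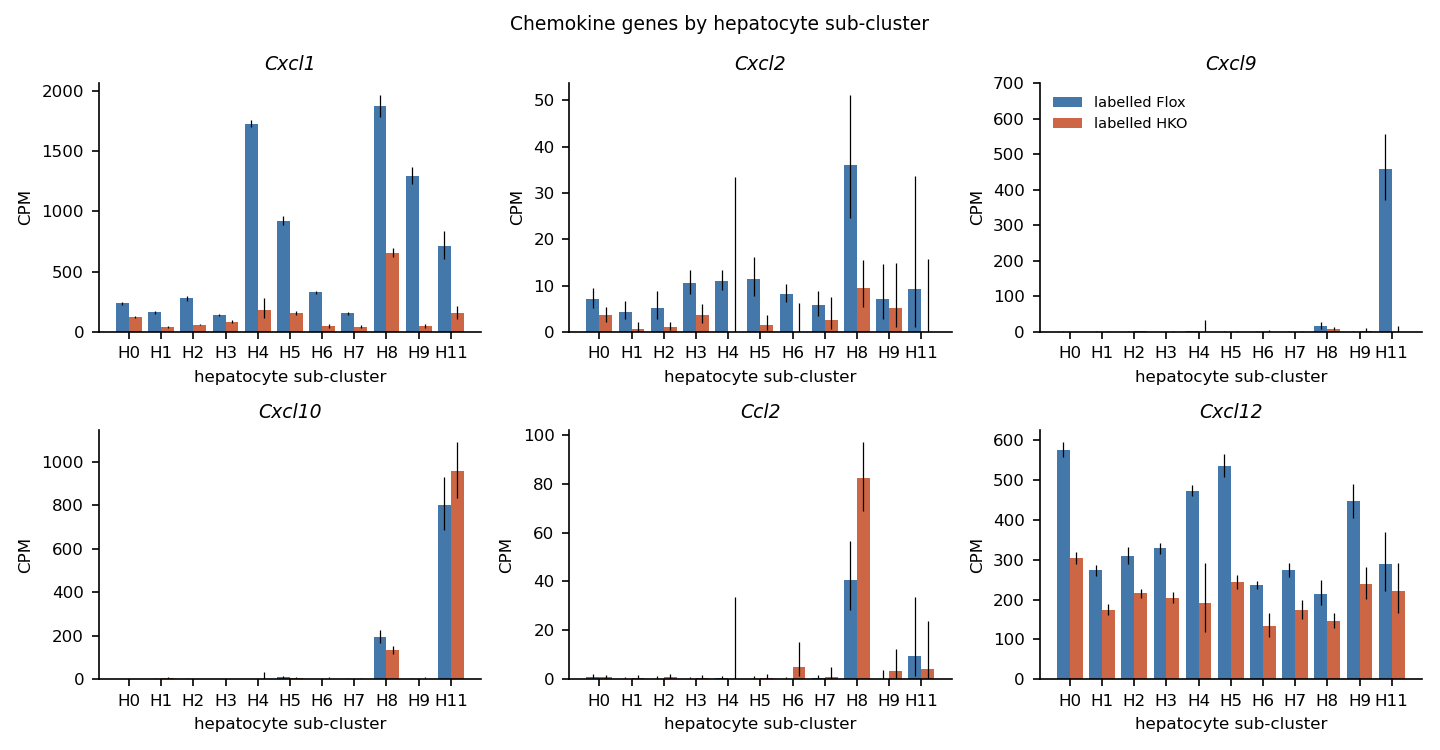
Level of 6 chemokine genes in the 11 hepatocyte sub-clusters, in CPM on linear axes that start at 0, with bars for the libraries labelled Flox and HKO and lines for 95% counting intervals. Cxcl1 and Cxcl12 are present in every sub-cluster, whereas Cxcl10 is concentrated in H8 and H11, Cxcl9 in the H11 nuclei labelled Flox (457 CPM) and Ccl2 in H8.

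Outside hepatocytes Cxcl1 differed the other way in stellate nuclei, the retinoid-storing cells that make scar matrix. It had 66 UMIs, or 54.2 CPM (41.9–69.0), in the library labelled Flox and 167 UMIs, or 137 CPM (117–159), in the library labelled HKO. The intervals did not overlap, and the ratio was 2.52 (1.89–3.41). Few nuclei carried it, 32 of 652 and 46 of 822, and the 10 with most UMIs gave 66.7% and 71.9% of the total. In the stellate nuclei labelled Flox, hepatocyte markers reached 11.8% of their hepatocyte level and Cxcl1 8.67%, so that the class level alone cannot be told apart from free hepatocyte RNA. Its UMIs were unevenly spread, with 19 of the 66 in 1 nucleus, and the part of free RNA was not tested. In those labelled HKO the markers reached 8.40% and Cxcl1 112%. The 3 stellate sub-clusters had ratios of 1.66 to 8.95, with intervals above 1 in 2 of them, and the highest level was in N6, at 136 and 253 CPM. N5, the unnamed class with collagen genes leading and stellate markers, did not show this difference. It had 49.8 and 44.3 CPM, a ratio of 0.891 (0.449–1.83). Cholangiocytes, the cells of the bile ducts, had 15.5 and 41.8 CPM, and the interval of their ratio (0.958–10.5) held 1. Sinusoidal endothelium had 27.7 and 10.4 CPM, a ratio of 0.375 (0.167–0.791). At 4.42% and 8.53% of the hepatocyte level these endothelial values lay below the 13.8% and 10.6% that hepatocyte markers reached there, and cannot be told apart from free hepatocyte RNA.

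Cxcl2 shares its receptor with Cxcl1, and its level was highest in N7 and in lipid-associated macrophages, the Trem2-expressing macrophages that take up lipid. N7 had 46 UMIs, or 160.0 CPM (117–213), in the library labelled Flox and 12 UMIs, or 37.3 CPM (19.2–65.1), in the library labelled HKO. The ratio was 0.233 (0.112–0.447), and the UMIs were in 8 and 2 nuclei. Of the 46 UMIs labelled Flox 24 were in 1 nucleus. Lipid-associated macrophages had 45 UMIs, or 118 CPM (85.7–157), and 110 UMIs, or 86.1 CPM (70.7–104), and the interval of their ratio (0.513–1.06) held 1. Within them the gene was mostly in N10, the sub-cluster led by Mmp12 and Gpnmb, at 185 CPM (134–249) and 202 CPM (165–246). The intervals of N7 and of the lipid-associated macrophages overlapped in the library labelled Flox. Sinusoidal endothelium had 0 UMIs of Cxcl2 in 647 and 1049 nuclei, and counts of 0 allow at most 0.464% and 0.286% of nuclei with a UMI at these depths, which is no limit on nuclei that express it.

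The nuclei that N7 held differed between the libraries too. Of the 187 nuclei labelled Flox 25 had a UMI of S100a8, S100a9 or Cxcr2, genes of neutrophils. They held 31 of the 46 Cxcl2 UMIs, 24 of them in 1 nucleus. Of the 311 nuclei labelled HKO 3 had one, and they held 0 of the 12. Over N7 the 6 neutrophil markers summed to 1102 and 248 CPM, with Ly6g at 0 UMIs in both libraries and Mmp9 at 0 in the library labelled HKO. Their part in the Cxcl2 difference was not tested, and these groups of nuclei were chosen after the values had been seen.

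Hepatocytes had a low level of Cxcl2, 402 UMIs, or 8.82 CPM (7.98–9.72), and 71 UMIs, or 2.58 CPM (2.02–3.26). The ratio was 0.293 (0.224–0.378), on the same side of 1 as that of Cxcl1. Intervals lay below 1 in 7 of 11 sub-clusters, and the highest level was in H8, at 36.0 and 9.52 CPM. In stellate nuclei the libraries differed the other way, as for Cxcl1. There were 6 UMIs, or 4.93 CPM (1.81–10.7), in the library labelled Flox and 52 UMIs, or 42.6 CPM (31.8–55.9), in the library labelled HKO, with a ratio of 8.64 (3.71–24.6). All 52 of the latter were in 9 nuclei, 1 of which held 17. N5 had 0 UMIs of Cxcl2 in its 162 and 355 nuclei. Neutrophil markers summed to 2.46 and 3.28 CPM in stellate nuclei, with S100a8, Retnlg, Mmp9 and Ly6g at 0 in both libraries. The 7 markers of lipid-associated macrophages summed to 62.4 and 113 CPM there, a ratio of 1.81 (1.36–2.43). Trem2 and Mmp12 were at 0 in the library labelled Flox, and all 7 were seen in the library labelled HKO. The part of RNA from these cells in the stellate Cxcl2 difference was not tested.

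Cxcl9 was highest in sinusoidal endothelium, the fenestrated lining of the liver's capillaries, at nearly the same level in both libraries. It had 81 UMIs, or 89.6 CPM (71.2–111), in the library labelled Flox and 94 UMIs, or 88.7 CPM (71.7–109), in the library labelled HKO. The ratio was 0.990 (0.728–1.35). The shares of thinned nuclei were 7.40% and 6.89%, beside 0.156% and 0.180% of hepatocytes. Endothelial nuclei had median depths of 1298 and 948 UMIs. N7 came second, at 31.3 CPM (14.3–59.4) and 65.2 CPM (40.4–99.7), and the interval of its ratio (0.915–5.17) held 1. The intervals of N7 and endothelium overlapped in the library labelled HKO.

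In hepatocytes Cxcl9 had 148 UMIs, or 3.25 CPM, in the library labelled Flox and 38 UMIs, or 1.38 CPM, in the library labelled HKO, with a ratio of 0.426 (0.290–0.612). This value rested on few nuclei. Of the UMIs labelled Flox 81.1% were in 10 nuclei, and 98 of 148 in 5 nuclei of H11, a sub-cluster led by the interferon response genes Rsad2 and Ifit1. H11 had 457 CPM in its 25 nuclei labelled Flox and 0 UMIs in its 35 nuclei labelled HKO. Without H11 the hepatocyte ratio was 1.27 (0.808–1.97), on the other side of 1.

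Cxcl10, which type I and type II interferons induce, was spread over more classes. Sinusoidal endothelium had 65 UMIs, or 71.9 CPM (55.5–91.6), and 96 UMIs, or 90.6 CPM (73.4–111), and the interval of the ratio (0.910–1.75) held 1. N7 had 125 CPM (87.7–173) and 37.3 CPM (19.2–65.1), with a ratio of 0.298 (0.141–0.585). N5 had 73.0 and 11.1 CPM, with a ratio of 0.152 (0.0504–0.386). In both of these classes a few nuclei decided the value. Of the 36 UMIs of N7 labelled Flox, 33 were in 42 nuclei with a UMI of Vcan, F13a1 or Ly6c2, genes of monocytes, and 20 in 1 nucleus, while 15 of the 22 UMIs of N5 were in 1 nucleus. Lipid-associated macrophages had 60.1 and 64.9 CPM, a ratio of 1.08 (0.674–1.80), with sub-clusters on opposite sides of 1, N2 at 93.2 and 18.2 CPM and N10 at 38.7 and 136 CPM. These values rested on few nuclei too. Of the class, 1 nucleus held 12 of the 23 UMIs labelled Flox and 1 held 25 of the 83 labelled HKO, so that no sub-cluster pattern is read from them. Stellate nuclei had 60.8 and 42.6 CPM (ratio 0.701, 0.482–1.01) and Kupffer nuclei 27.5 and 46.7 CPM (ratio 1.70, 0.957–3.07). Of the 74 stellate UMIs labelled Flox 31 were in 1 nucleus.

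Hepatocytes had 398 Cxcl10 UMIs, or 8.73 CPM (7.89–9.63), in the library labelled Flox and 496 UMIs, or 18.0 CPM (16.5–19.7), in the library labelled HKO. The ratio was 2.07 (1.81–2.36). These UMIs were in 64 and 71 nuclei, and the 10 with most gave 69.1% and 67.7% of the total. H11, with 798 and 956 CPM, and H8, with 193 and 134 CPM, held most of it. Within H8 the ratio was 0.697 (0.568–0.857) and within H11 1.20 (0.977–1.47). H8 had 129 and 281 nuclei, and H11 25 and 35. Without H8 and H11 the ratio was 1.31 (0.875–1.96), an interval that held 1. Since Cxcl10 is among the genes that lead both sub-clusters, these values describe them and test nothing.

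Cxcl12 was carried by most nuclei of its leading classes, stellate nuclei and N5. Stellate nuclei had 2901 UMIs, or 2382 CPM (2296–2470.5), in the library labelled Flox and 1669 UMIs, or 1367 CPM (1302–1434), in the library labelled HKO, with a ratio of 0.574 (0.540–0.610). It was seen in 83.4% and 62.6% of thinned stellate nuclei, whose median depths were 1776.5 and 1408.5 UMIs, beside 1.80% and 1.02% of Kupffer nuclei. The ratio lay below 1 with its interval in 3 of 3 stellate sub-clusters, from 0.519 to 0.647, and the highest level was in N15, at 3180.0 and 1865 CPM. N5 had 2687 CPM (2505–2878) and 1153 CPM (1064–1247), with a ratio of 0.429 (0.386–0.477). The intervals of N5 and the stellate class did not overlap in either library. The 8 stellate markers summed over stellate nuclei lay lower too, with 10889 and 8594 CPM and a ratio of 0.789 (0.769–0.810), and their part in the Cxcl12 difference was not tested.

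Hepatocytes carried Cxcl12 at a lower level but gave 80.6% and 71.2% of its UMIs. They had 17101 UMIs, or 375 CPM (369.6–381), and 6152 UMIs, or 224 CPM (218–229.5). The ratio was 0.597 (0.579–0.614). Over the 11 sub-clusters it ran from 0.402 to 0.767, and its interval lay below 1 in 10 of them, the exception being H11. The highest hepatocyte level was in H0, a sub-cluster led by Etnppl and Sds, at 577 and 304 CPM. The hepatocyte level was 15.7% and 16.4% of that in stellate nuclei, whereas stellate markers in hepatocytes reached 0.144% and 0.250% of their stellate level.

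Cxcl13 had 87.7% of its UMIs labelled Flox in nuclei of Kupffer cells, the resident macrophages of the liver. It had 185 UMIs, or 231 CPM (199–267), in 61 of 335 Kupffer nuclei there, against 6 UMIs, or 8.76 CPM (3.21–19.1), in 3 of 410 in the library labelled HKO. The ratio was 0.0379 (0.0137–0.0840). The shares of thinned nuclei were 12.3% and 0.763%. T cells had 0 UMIs of it in 158 and 298 nuclei, where at most 1.90% and 1.01% of nuclei with a UMI are allowed, and stellate nuclei had 0 in 652 and 822. Of the 61 positive nuclei labelled Flox 43 had 2 or more UMIs, and the 10 with most gave 41.6% of the total.

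Kupffer markers differed unequally beside Cxcl13. Marco, a scavenger receptor, had 439 and 56.9 CPM in Kupffer nuclei (ratio 0.130, 0.0907–0.181), and Cd163, the haemoglobin scavenger receptor, 507 and 65.7 CPM (ratio 0.129, 0.0930–0.176). Timd4, a receptor for dying cells that marks long-resident Kupffer cells, had 356 and 115 CPM (ratio 0.324, 0.249–0.417). Clec4f, a lectin of Kupffer cells, had 1248 and 1353 CPM, Cd5l 1857 and 2008 CPM, Folr2 157 and 169 CPM and Vsig4 497 and 375 CPM, with ratios from 0.754 to 1.08. Markers of lipid-associated macrophages lay the other way in the same nuclei, with Trem2 at 10.00 and 55.5 CPM, Gpnmb at 8.75 and 81.7 CPM and Mmp12 at 5.0 and 109 CPM. The 7 Kupffer markers summed to 5062 and 4144 CPM, and the 7 markers of lipid-associated macrophages to 589.8 and 1206 CPM, with Atp6v0d2 at 0 in the library labelled Flox. Their part in the Cxcl13 difference was not tested.

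**Figure D5:**
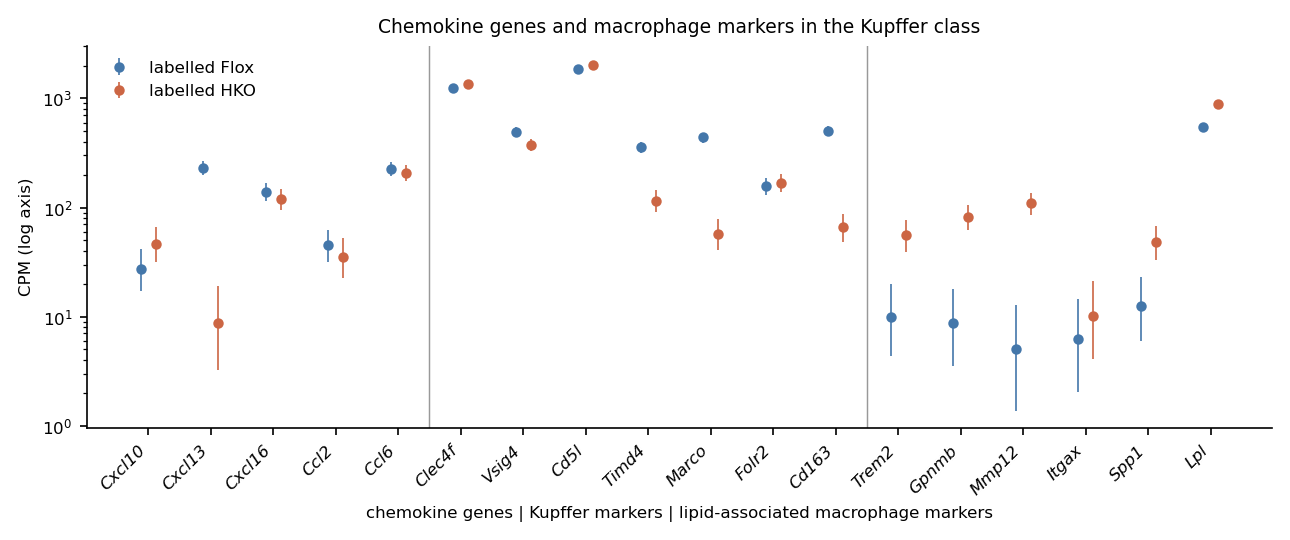
Level of 5 chemokine genes, 7 Kupffer markers and 6 lipid-associated macrophage markers in the nuclei of the Kupffer class, in CPM on a log axis, with points for the libraries labelled Flox and HKO and lines for 95% counting intervals. Cxcl13 (231 and 8.76 CPM), Marco and Cd163 lie far lower in the library labelled HKO, while Cxcl16, Ccl6, Clec4f, Cd5l and Folr2 lie close together in both.

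Cxcl13 was not limited to the Kupffer nuclei in which these receptors were seen. In the library labelled Flox it had 315 CPM (247–395) in the 90 nuclei with a Marco UMI and 196 CPM (162–236) in the 245 without. For Cd163 the levels were 324 CPM (262–396) in 118 nuclei with and 177 CPM (143–218) in 217 without. For Timd4 the order was turned, with 191 CPM (146–245) in 126 nuclei with and 259 CPM (215–308) in 209 without, and these intervals overlapped. In the library labelled HKO, 0 of 26 nuclei with Cd163 and 0 of 49 with Timd4 had a Cxcl13 UMI, and their intervals end at 79.0 and 42.8 CPM. With Marco, 1 of 15 nuclei labelled HKO held 2 of the 6 Cxcl13 UMIs, at 79.1 CPM (9.57–286), against 6.06 CPM (1.65–15.5) in the 395 without. A nucleus without a UMI of a marker may still hold its RNA, and the split was made after the levels had been seen.

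Cxcl16 was shared by the macrophage classes and differed little within them. It had 159 CPM (122–205) and 174 CPM (152–198) in lipid-associated macrophages, with a ratio of 1.09 (0.818–1.47). Kupffer nuclei had 139 CPM (114–167) and 119.7 CPM (95.2–149), N7 had 122 and 83.8 CPM, and sinusoidal endothelium 65.3 and 80.2 CPM. The intervals of their ratios (0.641–1.16, 0.401–1.17 and 0.872–1.74) held 1. The intervals of lipid-associated macrophages, Kupffer nuclei and N7 overlapped in the library labelled Flox. Thinned shares were 15.5% and 12.3% in lipid-associated macrophages, at median depths of 1906.5 and 1214 UMIs, and 0% in T cells of both libraries. Only 85 and 47 T cell nuclei were deep enough, with intervals that end at 4.25% and 7.55%. Before thinning, T cells labelled HKO had 2 Cxcl16 UMIs. Kupffer nuclei gave 29.1% and 14.4% of its UMIs and lipid-associated macrophages 16.0% and 39.0%. With classes called from the marker UMIs of each nucleus, the latter shares were 4.71% and 16.7%. There were 184 lipid-associated macrophages in the library labelled Flox and 963 in the library labelled HKO. Over all kept nuclei Cxcl16 had 7.45 and 16.5 CPM, a ratio of 2.21 (1.94–2.52), although the macrophage classes, N7 and sinusoidal endothelium stayed within 2-fold.

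Ccl6 was highest in N7, with 306 CPM (245–377) and 248 CPM (197–309). Kupffer nuclei followed with 226 CPM (194–262) and 207 CPM (175–244), and lipid-associated macrophages with 154 CPM (117–199) and 199.5 CPM (176–226). The intervals of the 3 classes overlapped in the library labelled HKO. The ratios were 0.812 (0.592–1.11), 0.916 (0.730–1.15) and 1.29 (0.972–1.75), each with an interval that held 1. Ccl6 was in 20.7% and 15% of thinned Kupffer nuclei, beside 0.156% and 0.289% of stellate nuclei. Lipid-associated macrophages gave 14.8% and 42.2% of its UMIs. Over all nuclei its level was 7.78 and 17.5 CPM, a ratio of 2.25 (1.98–2.56).

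Ccl2 was highest in stellate nuclei among the classes whose value did not rest on 1 nucleus, with 267 UMIs, or 219 CPM (194–247), in the library labelled Flox and 205 UMIs, or 168 CPM (146–193), in the library labelled HKO. The ratio was 0.766 (0.635–0.922), and over the 3 sub-clusters it ran from 0.529 to 0.741. It was seen in 8.45% and 9.24% of thinned stellate nuclei, beside 0% of T cells. Only 85 and 47 T cell nuclei were deep enough, and the intervals of these shares end at 4.25% and 7.55%. Before thinning, T cells labelled HKO had 2 Ccl2 UMIs. N6, with 168 and 345 of the stellate nuclei, had the highest level, 305 and 219 CPM, as it had for Cxcl1. High values of other classes rested on single nuclei: N5 had 146 and 36.9 CPM, with 39 of its 44 UMIs labelled Flox in 1 nucleus, and proliferating nuclei had 255 and 38.5 CPM, with 34 of 42 in 1 nucleus. Kupffer nuclei had 45 and 35 CPM (ratio 0.779, 0.444–1.34), and lipid-associated macrophages 44.4 and 22.7 CPM (ratio 0.511, 0.272–0.991).

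In hepatocytes Ccl2 lay on the other side of 1. It had 49 UMIs, or 1.07 CPM (0.795–1.42), in 20 nuclei labelled Flox and 160 UMIs, or 5.82 CPM (4.95–6.80), in 56 nuclei labelled HKO. The ratio was 5.42 (3.91–7.62), and hepatocytes gave 10.2% and 32.7% of all Ccl2 UMIs. H8 held 35 of the 49 and 138 of the 160 UMIs, at 40.7 CPM (28.3–56.6) and 82.1 CPM (69.0–97.0). Without H8 the levels were 0.313 and 0.853 CPM, with a ratio of 2.72 (1.33–5.76). The hepatocyte level was 0.490% and 3.47% of that in stellate nuclei, beside 0.144% and 0.250% for stellate markers.

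Ccl5, a product of cytotoxic lymphocytes, was led by T cells, a class that also held NK markers. It had 156 UMIs, or 912 CPM (775–1067), and 224 UMIs, or 963 CPM (841–1098). The ratio was 1.06 (0.856–1.30), but with classes called from the marker UMIs of each nucleus the log2 ratio was 0.90, and T cells then gave 35.5% and 55.5% of the Ccl5 UMIs in place of 72.9% and 76.7%. Ccl5 was seen in 42.4% and 38.3% of thinned T cell nuclei, at median depths of 1047 and 694 UMIs, beside 0.0173% and 0.113% of hepatocytes. N7 came next, at 125 CPM (87.7–173) and 40.4 CPM (21.5–69.0), with a ratio of 0.322 (0.157–0.623). There 30 of the 36 UMIs labelled Flox were in 12 nuclei with a UMI of Ccl22 or Ccr7, genes of mature dendritic cells, and in the library labelled HKO 4 such nuclei held 7 of 13. Their part in the N7 difference was not tested.

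The remaining hepatocyte differences were at very low levels. Cxcl16 had 0.548 and 1.20 CPM there, Ccl5 0.285 and 0.910 CPM and Ccl6 0.768 and 1.71 CPM, with ratios of 2.19 (1.26–3.84), 3.19 (1.57–6.79) and 2.23 (1.41–3.55). The level of Cxcl16 was 0.344% and 0.691% of that in lipid-associated macrophages, beside 0.449% and 0.997% for their markers. Ccl5 reached 0.0313% and 0.0945% of its T cell level, beside 0.0239% and 0.0578% for T cell markers, and Ccl6 0.340% and 0.825% of its Kupffer level, beside 0.101% and 0.214% for Kupffer markers. Markers of these source cells lay higher in the same hepatocytes too. The 7 markers of lipid-associated macrophages summed to 15.8 and 46.1 CPM (ratio 2.93), the 8 T cell markers to 0.878 and 2.11 CPM (ratio 2.41), with Cd3d and Skap1 at 0 in the library labelled Flox, and the 7 Kupffer markers to 5.11 and 8.88 CPM (ratio 1.74). The part of free RNA from these cells was not tested, and no expression in hepatocytes is read from these values.

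Members were then looked for in the same nuclei, after thinning to 1000 UMIs. Among stellate nuclei labelled HKO 15 of the 32 with Cxcl1 also had Ccl2, where the product of the shares gives 2.96 nuclei, and 11 of the 21 with Cxcl10 had Ccl2, against 1.94. In the library labelled Flox 7 of 20 stellate nuclei with Cxcl1 had Ccl2, against 1.69. Among hepatocytes labelled HKO 17 of the 35 with Cxcl10 also had Cxcl1, against 2.56, as did 11 of the 20 with Ccl2, against 1.46. In those labelled Flox 16 of the 27 with Cxcl10 had Cxcl1, against 7.98. Cxcl9 and Cxcl10 were seen together in 4 and 7 sinusoidal nuclei, against 1.92 and 2.14. Cxcl12 lay the other way among stellate nuclei labelled HKO, where 11 of the 32 with Cxcl1 had it, against 20.0. Those labelled Flox did not show this, with 18 of the 20 with Cxcl1 having it, against 16.7. Cxcl16 and Ccl6 were seen together in 8 and 5 Kupffer nuclei, against 9.30 and 6.16. The nuclei of 1 library share their sample, and these counts are a description.

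NF-kB response genes were compared between stellate nuclei with and without a member, thinned to the same depth, and a gene is counted as higher when its CPM was at least 2-fold that of the nuclei without and the interval left out 1. In nuclei with Cxcl1, 6 of 7 measured NF-kB response genes were higher in the library labelled Flox, with a median ratio of 3.93, and 6 of 9 in the library labelled HKO, with a median of 5.27. Of all genes measured 1.62% and 2.37% were higher. With Ccl2 the counts were 6 of 7 and 5 of 9, beside 2.25% and 2.86% of all genes. With Cxcl12 they were 0 of 7 and 0 of 9, with medians of 0.773 and 0.813, beside 1.86% and 1.55%. In hepatocytes with Cxcl10, 6 of 10 interferon response genes were higher in the library labelled Flox, with a median of 13.7, and 7 of 10 in the library labelled HKO, with a median of 8.78. NF-kB response genes were higher in the same nuclei too, 6 of 10 and 10 of 12, with medians of 5.67 and 5.04, beside 2.37% and 2.77% of all genes. With Cxcl1, 3 of 10 NF-kB response genes were higher among 1703 hepatocytes labelled Flox and 6 of 12 among 324 labelled HKO, with medians of 1.18 and 2.55, beside 0.864% and 1.3% of all genes. In sinusoidal nuclei with Cxcl9, 4 of 9 interferon response genes were higher in the library labelled Flox and 0 of 7 in the library labelled HKO, beside 1.69% and 1.67%. These nuclei of 1 library are no replicates, and the counts are a description.

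The same lists were then compared between the libraries. Of all genes measured, 1.63% lay higher and 4.1% lower in stellate nuclei, and 6.2% and 4.72% in hepatocytes. In stellate nuclei 2 of 13 NF-kB response genes lay higher in the library labelled HKO, Tnfaip2 with a ratio of 3.32 (1.29–10.1) and Tnfaip3, a feedback inhibitor of NF-kB, with 2.88 (1.31–6.99), and 0 lower. The lowest ratios of that list were those of Vcam1, 0.845, and Sod2, 0.959, and its median log2 ratio was 0.52, beside -0.06 over all genes. In hepatocytes 2 of 13 lay higher, Vcam1 with 4.56 (3.15–6.73) and Relb with 3.77 (2.83–5.06), and the lowest were Bcl3, 0.531, and Tnfaip2, 0.643. Of the interferon response genes in hepatocytes 3 of 15 lay higher, led by Ifit2 with 8.44 (5.31–14.0) and Rsad2 with 3.52 (3.03–4.10), and the lowest were Irf7, 0.555, and Stat2, 0.878. In stellate nuclei 1 of 15 interferon response genes lay lower, Gbp2 with 0.399 (0.152–0.946), followed by Ifit3 with 0.505, and the highest were Gbp5, 1.60, and Rsad2, 1.41.

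Of the 26 other chemokine ligands of the count tables, 7 reached 20 UMIs in stellate nuclei and 5 in hepatocytes. Stellate nuclei had Ccl7, a further ligand of Ccr2, at 18.9 and 42.6 CPM (ratio 2.26, 1.36–3.86), and Cxcl5, a further ligand of Cxcr2, at 7.39 and 25.4 CPM (ratio 3.44, 1.60–8.20). The other 5 there were neither higher nor lower, beside 1.63% higher and 4.1% lower of all genes measured in stellate nuclei. Ccl25, the ligand of Ccr9, had 206 and 186 CPM in hepatocytes. Ccl9 lay higher in Kupffer nuclei, with 7.50 and 30.7 CPM, and in lipid-associated macrophages, with 31.3 and 68.1 CPM, while Ccl3 lay lower in the latter, with 52.2 and 14.1 CPM (ratio 0.270, 0.134–0.537). Beside Ccl5, T cells had Ccl4 at 222 and 168 CPM and Xcl1 at 263 and 181 CPM. In N7 Ccl22 had 74 UMIs and 1 UMI, and Pf4 had 10.4 and 90.0 CPM.

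The receptors of the members had leading classes of their own. Ccr2, the receptor of Ccl2, was highest in N7, with 2132 and 2129.7 CPM. T cells carried Cxcr6, the receptor of Cxcl16, at 474 and 460.0 CPM, and Cxcr3, the receptor of Cxcl9 and Cxcl10, at 140.4 and 86.0 CPM. B cells carried Cxcr5, the receptor of Cxcl13, at 133 and 243 CPM, and Cxcr4, the receptor of Cxcl12, at 254 and 350.3 CPM. Cxcr2, the receptor of Cxcl1 and Cxcl2, had 45 UMIs in N7 labelled Flox and 1 in N7 labelled HKO. Of 10 receptors measured in hepatocytes 3 lay higher, Cxcr4, Ccr2 and Cx3cr1, and 2 lower, Ccr9 and the scavenging receptor Ackr4, which had 8.91 and 4.15 CPM. Of all genes measured there 6.2% lay higher and 4.72% lower. Markers of lipid-associated macrophages and T cells lay higher in these hepatocytes too, with ratios of 2.93 and 2.41. The part of free RNA in the receptor values was not tested.

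For each member, the genes with the most similar levels over the 12 classes of both libraries were sought among 12781 genes, by Pearson's correlation of log2(CPM + 1) over 24 points. The points share 2 libraries and differ in depth, so that r, given in parentheses, is a description. Ccl6 was most like Aif1 (0.957), Tyrobp (0.957) and Cd300c2 (0.949), Cxcl16 like Sirpa (0.913), Pld2 (0.902) and Stx3 (0.898), and Ccl5 like Klrd1 (0.881), Capn1 (0.858) and Il7r (0.834). Cxcl13 was most like Zfp811 (0.700), Cd163 (0.680) and Marco (0.667), of which Cd163 and Marco are described above. Cxcl12 was most like D630033O11Rik (0.943), Olfr1029 (0.936) and Tmem56 (0.928), and Cxcl1 like Gm26981 (0.811), Oaf (0.811) and Fam210b (0.804). The genes nearest to Cxcl10 were Mrm2 (0.855), Rrbp1 (0.815) and Ifih1 (0.809), and those nearest to Ccl2 Olfr920 (0.844), Rnf150 (0.814) and Ifih1 (0.810), with Ifih1, a sensor of viral RNA, in both sets. Those nearest to Cxcl2 were Slamf8 (0.816), Cd300lb (0.796) and Tlr13 (0.794), and those nearest to Cxcl9 Kcnj2 (0.747), Sbno2 (0.730) and Slk (0.727).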

How the data were processed

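Nuclei of 2 pooled liver samples, 1 per group, were profiled. The authors deposited filtered tables of counts, UMIs by gene and nucleus that were not normalized, made with Cell Ranger 8.0.1 on mm10 (GRCm38) with intronic reads left out, per the labels and the study's methods. Levels therefore rest on exonic, mostly 3′, reads of nuclear RNA. Nuclei with at least 300 genes and genes in at least 3 nuclei were kept, and Scrublet (scanpy 1.11.5) removed 701 and 920 doublets, at a preset rate of 0.8% per 1000 barcodes. Seurat 5.3.0 integrated both libraries with 3000 variable features, 15 components and a resolution of 0.2, then 0.6 for hepatocytes and 1 for other nuclei, without 68 chemokine genes. Clusters were named from 19 marker lists. CPM and ratios came from summed UMIs, log2 ratios added 1 CPM, and intervals were exact Poisson, conditional binomial or Clopper-Pearson (scipy 1.17.1). The ratio intervals were tried on simulated Poisson counts, the model they assume. That trial could not cover UMIs gathered in single nuclei, for which the intervals are too narrow. With 1 library per group no test was run. Depth is given as totals and as the limit that 3 counts set.

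The members and gene lists were chosen with earlier results of these data known, and the naming rules, second-round resolutions and splits of N7 and Kupffer nuclei after clusters and values were seen. Members were named throughout, as were the 3 genes with at least 200 UMIs most like each in pattern, the listed ligands and receptors with at least 20 UMIs, of which only some are given, picked with values seen, and the 2 highest and 2 lowest NF-kB and interferon response genes of a class. Alternatives were a 500-gene filter, doublets kept, no integration, marker calls per nucleus, equal weights, thinning, edgeR 4.0.16 TMM factors on the counts and a pseudocount of 10 CPM. Python 3.11.15 and R 4.3.3 were used.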

Additional observations from a re-analysis of the deposited data

Results flagged for a closer look

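The ratio of CPM, library labelled HKO over library labelled Flox, of 6 members was at least 2 in one class and at most 0.5 in another, with intervals that left out 1. The difference between classes was not tested, since each group was 1 library. The share of all genes with such a pair of classes is not given, so that the count of members has nothing beside it. Cxcl1 had a ratio of 2.52 in stellate nuclei against 0.195 in hepatocytes, 0.375 in sinusoidal endothelium and 0 in proliferating nuclei, where the library labelled HKO had 0 UMIs and all 22 UMIs labelled Flox were in 1 nucleus. Cxcl2 had 8.64 in stellate nuclei against 0.293 in hepatocytes and 0.233 in N7. Cxcl10 had 2.07 in hepatocytes against 0.152 in N5, 0.298 in N7 and 0.261 in proliferating nuclei. Cxcl16 had 2.19 in hepatocytes, at 0.548 and 1.20 CPM, against 0.482 in proliferating nuclei. Ccl2 had 5.42 in hepatocytes against 0.253 in N5 and 0.151 in proliferating nuclei, and Ccl5 had 3.19 in hepatocytes, at 0.285 and 0.910 CPM, against 0.322 in N7. Several of these values rested on 1 nucleus labelled Flox. Such a nucleus held 15 of 22 Cxcl10 UMIs in N5, 39 of 44 Ccl2 UMIs in N5 and 34 of 42 in proliferating nuclei. In N7 such a nucleus held 24 of 46 Cxcl2 UMIs, and 1 held 20 of 36 Cxcl10 UMIs. The endothelial Cxcl1 value cannot be told apart from free hepatocyte RNA. No hepatocyte expression is read from the values of Cxcl16 and Ccl5.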

How the results depend on the processing

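Of 80 log2 ratios in a leading class, recomputed one alternative at a time, 75 stayed within the counting interval of the reported value and 5 moved beyond it, and 77 kept their sign. Of 60 over all kept nuclei 34 stayed within it, 24 moved beyond it on the same side of 0, and 2 turned: thinning took Ccl5 from 0.87 to -0.35 and Cxcl2 from -0.39 to 0.37. Of 120 shares of UMIs from the leading class, which follow the make-up and depth of the nuclei, 58 stayed within their interval and 62 did not. The leading class here is the named class with the highest mean CPM of both libraries. The cause of these moves was not tested.

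After each nucleus was thinned to 1000 UMIs the log2 ratio over all kept nuclei was 0.37 for Cxcl2, 0.29 for Cxcl10, -0.79 for Cxcl12, -2.85 for Cxcl13, 0.16 for Ccl2, -0.35 for Ccl5 and 0.76 for Ccl6, and that within a class was -2.41 for Cxcl1 in hepatocyte nuclei and -0.50 for Ccl6 in Kupffer nuclei. There the leading class gave in the library labelled Flox 97.3% of the UMIs of Cxcl1, 20.6% of those of Cxcl2, 59.0% of those of Cxcl9, 21.0% of those of Cxcl10, 36.7% of those of Cxcl12, 99.0% of those of Cxcl13, 68.2% of those of Ccl2 and 80.7% of those of Ccl5, and in the library labelled HKO 77.5% of the UMIs of Cxcl1, 53.9% of those of Cxcl2, 14.5% of those of Cxcl10, 40.6% of those of Cxcl12, 53.6% of those of Ccl2 and 68.8% of those of Ccl5. When each nucleus was weighted equally the log2 ratio over all kept nuclei was -2.57 for Cxcl1, -0.12 for Cxcl2, 0.53 for Cxcl9, 0.33 for Cxcl10, -0.86 for Cxcl12, -2.72 for Cxcl13, 0.0404 for Ccl2 and 0.86 for Ccl6. There the leading class gave in the library labelled Flox 96.7% of the UMIs of Cxcl1, 21.1% of those of Cxcl2, 63.0% of those of Cxcl9, 21.1% of those of Cxcl10, 36.5% of those of Cxcl12, 94.0% of those of Cxcl13, 63.4% of those of Ccl2 and 84.9% of those of Ccl5, and in the library labelled HKO 74.6% of the UMIs of Cxcl1, 59.2% of those of Cxcl2, 59.5% of those of Cxcl9, 29.8% of those of Cxcl10, 43.1% of those of Cxcl12, 54.3% of those of Ccl2 and 88.9% of those of Ccl5. With classes called from the marker UMIs of each nucleus the log2 ratio within a class was -0.71 for Ccl2 in stellate nuclei and 0.90 for Ccl5 in T cell nuclei. There the leading class gave in the library labelled Flox 99.3% of the UMIs of Cxcl1, 3.10% of those of Cxcl2, 16.7% of those of Cxcl12, 4.71% of those of Cxcl16, 62.4% of those of Ccl2, 35.5% of those of Ccl5 and 50.6% of those of Ccl6, and in the library labelled HKO 21.0% of the UMIs of Cxcl2, 23.6% of those of Cxcl12, 16.7% of those of Cxcl16, 55.5% of those of Ccl5 and 35.4% of those of Ccl6. For clusters made without integration the leading class gave in the library labelled Flox 5.04% of the UMIs of Cxcl2, 12.2% of those of Cxcl10, 13.1% of those of Cxcl12, 92.9% of those of Cxcl13, 5.76% of those of Cxcl16 and 52.9% of those of Ccl6, and in the library labelled HKO 18.4% of the UMIs of Cxcl12. Where Scrublet doublets were kept the log2 ratio over all kept nuclei was -2.47 for Cxcl1. There the leading class gave in the library labelled Flox 91.9% of the UMIs of Cxcl1, 11.1% of those of Cxcl12, 73.9% of those of Cxcl13, 7.84% of those of Cxcl16, 47.7% of those of Ccl2 and 35.9% of those of Ccl6, and in the library labelled HKO 84.0% of the UMIs of Cxcl1, 33.9% of those of Cxcl2, 15.5% of those of Cxcl12, 14.7% of those of Cxcl16, 33.6% of those of Ccl2, 66.0% of those of Ccl5 and 18.3% of those of Ccl6. Among nuclei with at least 500 detected genes the log2 ratio over all kept nuclei was 0.52 for Ccl5. There the leading class gave in the library labelled HKO 70.4% of the UMIs of Ccl5. Under TMM factors the log2 ratio over all kept nuclei was -2.53 for Cxcl1 and -0.83 for Cxcl12. At a pseudocount of 10 CPM the log2 ratio over all kept nuclei was -2.33 for Cxcl1, 0.51 for Cxcl10, -0.46 for Cxcl13, 0.60 for Cxcl16, 0.32 for Ccl2, 0.38 for Ccl5 and 0.63 for Ccl6, and that within a class was -2.27 for Cxcl1 in hepatocyte nuclei.

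Alternatives chosen after seeing the data left out hepatocyte sub-clusters. The log2 ratio of Cxcl1 was -1.51 without H4 and -2.78 without H8, against -2.35 with both. That of Ccl2 was 0.50 without H8, that of Cxcl10 0.24 without H8 and H11, and that of Cxcl9 turned to 0.19 without H11, against -0.83. No paired analysis was possible because each group was 1 library. Depth limited the rest: a count of 0 in 81 B cell nuclei labelled Flox bounds a level only at 36.3 CPM, against 0.0658 CPM in hepatocytes.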
